A study of Homo sapiens with 12 samples.

Results

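The genes described are 10 DNA end-joining factors, XRCC5, XRCC6, PRKDC, LIG4, XRCC4, NHEJ1, DCLRE1C, POLL, POLM and POLQ. They were chosen by their names, not by a cut on any measured value, out of 26485 genes in each deposited table. Earlier results of these data were known when they were chosen. Every one of the 10 was listed in both tables, and its reads were recovered in all 12 libraries. PolyA RNA had been sequenced from HEK293T, a line from human embryonic kidney with the simian virus 40 large T antigen, which binds p53. Cells in 6-well plates received 2 µg of a PX330-GFP plasmid with 6 µl polyethylenimine per well. There were 4 groups of 3 libraries each, with the sgRNA called 6T or one aimed at luciferase, which is not a human gene, each with Cas9 or without it, so that the groups without Cas9 still carried plasmid, sgRNA and transfection reagent. The labels do not say whether the libraries of a group came from separate cultures, so p-values measure the spread between these libraries. In these bulk samples a change in the share of cells that express a gene and a change in RNA per cell cannot be told apart.

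Each table compares a condition A with a condition B of 1 sgRNA, and 1 of the pair held Cas9. The headers do not say which one it was, and both tables need not share an order, so every difference is given as condition B relative to A, and A of the 6T table may not be the same treatment as A of the Luciferase table. The 3 recovered libraries of a condition carry numbers (A1, B2 and so on) in the order of their size factors, not replicate numbers. The unit is the normalized read, a read count divided by the size factor of its library.

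Classical end joining repairs a double-strand break by holding and ligating its ends with little or no homology. The Ku heterodimer of XRCC5 (Ku80) and XRCC6 (Ku70) slides onto the end and recruits the DNA-dependent protein kinase catalytic subunit, PRKDC, which activates the nuclease Artemis, DCLRE1C. LIG4, the ligase of this pathway, is held stable by XRCC4, and NHEJ1 (XLF) joins XRCC4 in bridging the ends, while the family X polymerases POLL and POLM fill gaps. POLQ belongs to another route, in which resected ends are annealed at short homologies, and it is known to be active when DNA replicates. Breaks made by Cas9 are mostly mended by these routes, which is what makes the genes of interest in cells that received the nuclease.

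The label HEK293T was checked against 6 genes that mark the line, NEFL, NEFM, INA, GATA3, PAX2 and LIN28B. All 6 had reads in the 12 libraries, with a summed level of 6296 to 8552 normalized reads. Among blood markers CD3E was at 0 in all 12 libraries and PTPRC had 2 reads in all. RAG1, RAG2 and DNTT, which act with end joining in lymphocytes, summed to 13.7 to 37.7 normalized reads per library, nearly all of it RAG1. Library totals ran from 5891249 to 8297390 gene reads, except in condition B of the Luciferase table, where they ran from 19403625 to 38053964, so depth and condition went together there. Library A1 of the Luciferase table stood apart from the rest in base composition, as described with XRCC4 and POLQ.

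The 10 transcripts differ widely in base composition, and the levels of several moved with the base composition of the library, as described below, so the starts of 3 coding sequences are shown. In the longest GENCODE v29 transcript of each gene, G and C made up 36.2% of LIG4, 36.7% of XRCC4, 41.1% of POLQ, 41.3% of DCLRE1C, 44.2% of XRCC5, 45.3% of PRKDC, 48.8% of NHEJ1, 50.7% of XRCC6, 60.1% of POLL and 61.4% of POLM. The first 120 coding bases, from the start codon and 5′ to 3′ on the coding strand, are given for the 2 members poorest in G and C and for POLM, the richest, with G and C in capitals.
LIG4: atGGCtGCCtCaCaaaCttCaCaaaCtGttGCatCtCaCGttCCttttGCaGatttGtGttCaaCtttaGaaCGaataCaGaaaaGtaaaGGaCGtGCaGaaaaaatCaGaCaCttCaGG
XRCC4: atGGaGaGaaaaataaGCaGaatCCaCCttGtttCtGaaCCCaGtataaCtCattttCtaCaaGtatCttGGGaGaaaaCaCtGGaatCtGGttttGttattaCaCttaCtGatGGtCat
POLM: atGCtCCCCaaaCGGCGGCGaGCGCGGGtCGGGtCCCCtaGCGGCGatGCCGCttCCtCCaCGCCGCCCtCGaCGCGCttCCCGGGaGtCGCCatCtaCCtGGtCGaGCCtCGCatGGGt
G and C made up 40% of the LIG4 stretch, 35.8% of the XRCC4 stretch and 71.7% of the POLM stretch. Over the whole coding sequence the shares were 37.8% for LIG4, 38.8% for XRCC4 and 63.7% for POLM. LIG4 lies at chr13:108207439-108218368 on the minus strand and XRCC4 at chr5:83077498-83353787 on the plus strand of hg38. POLL lies at chr10:101578882-101588270 and POLM at chr7:44072247-44082540, both on the minus strand.

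The Ku subunits and the kinase were expressed at levels far above the ligase complex that acts with them. Per kilobase of exon, XRCC6 had 2678 ± 141 normalized reads (SD, n = 12 libraries), XRCC5 1559 ± 267 and PRKDC 758 ± 66.2. POLL followed at 169 ± 22.4, POLM at 113 ± 13.4, NHEJ1 at 100.2 ± 10.3 and POLQ at 49.8 ± 12.4 on the same scale. DCLRE1C had 27.0 ± 3.78, XRCC4 21.1 ± 15.1 and LIG4 15.4 ± 4.45 normalized reads per kilobase. The level of XRCC6 per kilobase was 174 times and that of XRCC5 101 times that of LIG4. XRCC6, XRCC5, PRKDC and POLL each stood above the next gene in that order without overlap over the 12 libraries, and so did NHEJ1 above POLQ. The ranges of POLM and NHEJ1 overlapped, as did those of POLQ and DCLRE1C, of DCLRE1C and XRCC4, and of XRCC4 and LIG4. Within a library POLQ lay above DCLRE1C in 12 of 12, POLM above NHEJ1 in 7, DCLRE1C above XRCC4 in 9 and XRCC4 above LIG4 in 5, so the last 3 pairs are not ordered. With the longest transcript as the length, DCLRE1C came to 46.8 normalized reads per kilobase and POLL to 218, POLQ lay above DCLRE1C in 8 of 12 libraries, and the order of the 10 means was the same.

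**Figure D1:**
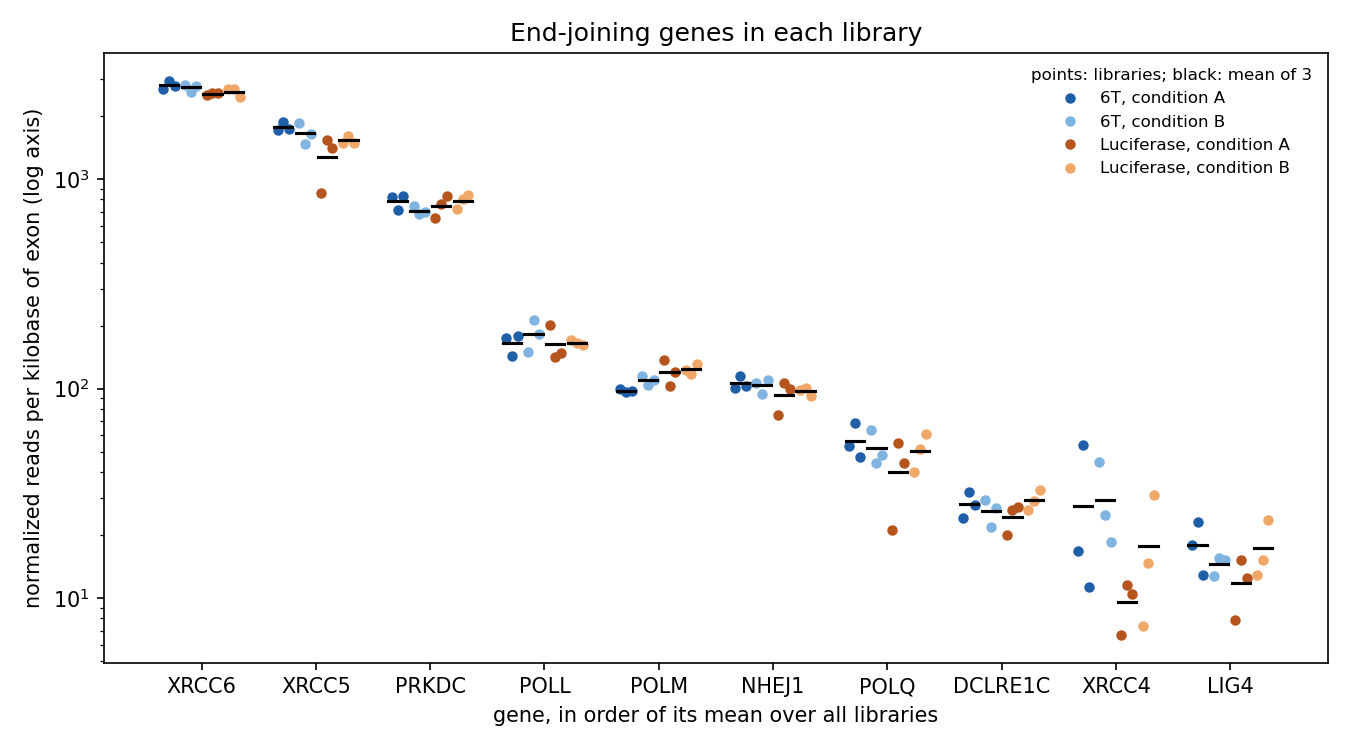
Normalized reads per kilobase of exon (log axis) of the 10 end-joining genes in each library, with points for the 3 libraries of each group and a black line for their mean. XRCC6, XRCC5 and PRKDC sit above all others, with means of 2678, 1559 and 758 over 12 libraries, and XRCC4 spreads most widely within groups.

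XRCC5, on chr2:216107464-216206303, and XRCC6, on chr22:41621119-41664048, encode partners of the same heterodimer, and XRCC6 had 1.72 times the level of XRCC5 per kilobase. XRCC6 was the steadiest of the 10 over the 12 libraries. Under the 6T sgRNA it stood at 7908, 8688 and 8176 normalized reads in condition A and at 8276, 7707 and 8241 in condition B. Under the Luciferase sgRNA it stood at 7403, 7576 and 7582 in condition A and at 7944, 7910 and 7226 in condition B. The highest and lowest of the 12 libraries differed 1.20-fold, and A and B overlapped under both sgRNAs. In the authors' deposited table the log2 fold change of XRCC6 was −0.03 with the 6T sgRNA (p = 0.808) and 0.03 with the Luciferase sgRNA (p = 0.897).

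XRCC5 varied more than its partner. It stood at 6433, 7069 and 6539 normalized reads in condition A and at 6989, 5552 and 6195 in condition B of the 6T table. In the Luciferase table it stood at 3243, 5767 and 5322 in condition A and at 5588, 6057 and 5609 in condition B. Library A1 of the Luciferase table was the lowest of the 12 by far, and A and B overlapped in both tables. The authors' deposited table gave XRCC5 a log2 fold change of −0.10 with the 6T sgRNA (p = 0.511) and of 0.27 with the Luciferase sgRNA (p = 0.226). On the recovered reads of the Luciferase table, limma gave a log2 difference of 0.31 (95% interval −0.11 to 0.74), which was 0.05 without library A1.

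PRKDC, the kinase, lies on chromosome 8 and starts 2 bases from the divergent gene MCM4. It stood at 11071, 9671 and 11164 normalized reads in condition A and at 10052, 9204 and 9449 in condition B with the 6T sgRNA. Under the Luciferase sgRNA it stood at 8766, 10329 and 11231 in condition A and at 9687, 10894 and 11379 in condition B. Condition B was the lower of the pair with the 6T sgRNA and the higher with the Luciferase sgRNA, with A and B overlapping in both. The authors' deposited table gave log2 fold changes of −0.15 (p = 0.295), the smallest p of any member with the 6T sgRNA, and 0.08 (p = 0.748). With limma the 6T difference of PRKDC was −0.15 (95% interval −0.34 to 0.04, adjusted p = 1.00). MCM4, a helicase subunit of DNA replication, stood at 6155 to 7209 normalized reads, and the authors' deposited table gave it log2 fold changes of −0.05 and −0.02.

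LIG4, the ligase, had 21 to 81 reads in each library other than the 3 deep ones. Its normalized reads with the 6T sgRNA were 78.5, 101 and 56.3 in condition A and 56.1, 68.4 and 66.9 in condition B. Under the Luciferase sgRNA they were 34.7, 66.5 and 54.6 in condition A and 56.9, 67.0 and 104 in condition B. The highest libraries were Luciferase B3 and 6T A2, the lowest was Luciferase A1, and A and B overlapped in both tables. The authors' deposited table put LIG4 at a log2 fold change of −0.30 with the 6T sgRNA (p = 0.40) and of 0.55 with the Luciferase sgRNA (p = 0.157), the smallest p of any member there. The limma difference of LIG4 with the Luciferase sgRNA was 0.54 (95% interval −0.12 to 1.20, adjusted p = 0.454), and it was 0.28 without library A1. With the 6T sgRNA its limma difference, −0.26, was −0.06 without library A2 and −0.48 without A3.

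XRCC4, the partner that keeps the ligase stable, was the most uneven of the 10. Its normalized reads with the 6T sgRNA were 29.2, 93.6 and 19.6 in condition A and 77.4, 43.3 and 32.2 in condition B. Under the Luciferase sgRNA they were 11.6, 20.1 and 18.2 in condition A and 12.7, 25.5 and 54.0 in condition B. The highest library, 6T A2, stood 8.09-fold above the lowest, Luciferase A1, and the 3 libraries of condition A with the 6T sgRNA alone differed 4.78-fold. Those values rest on few reads, 75 in 6T A2 and 7 in Luciferase A1. The exact Poisson 95% interval, for counting error only, was 73.6 to 117 normalized reads in 6T A2 against 11.2 to 31.8 in 6T A3, so counting error does not cover the distance between these libraries of 1 condition. The authors' deposited table gave XRCC4 a log2 fold change of 0.10 with the 6T sgRNA (p = 0.992) and of 0.89 with the Luciferase sgRNA (p = 0.409). The limma intervals of the log2 difference were −0.86 to 1.51 and −0.40 to 1.71, so a level in B more than 2-fold above that in A lay within both. The limma value of XRCC4 with the Luciferase sgRNA, 0.66, was 0.15 without library B3 and 1.15 without B1.

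NHEJ1 (XLF), on chr2:219075317-219160865, stood between 157 and 242 normalized reads. Its means were 223 ± 16.9 in condition A and 217 ± 16.8 in condition B with the 6T sgRNA, and 197 ± 35.2 and 204 ± 10.1 with the Luciferase sgRNA (SD, n = 3 each). The authors' deposited table gave it log2 fold changes of −0.04 and 0.05. Another GENCODE gene, AC068946.1, overlaps the annotated exons of NHEJ1 by 2034 bases on the same strand. No gene of that name was listed in the tables, which do list genes at 0 reads, such as CD3E. Reads in the shared bases were thus not counted for a gene of that name. Whether the counting held this gene under another name is not given in the sources used here.

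DCLRE1C (Artemis), the nuclease that opens hairpin ends, lies on chr10:14897359-14954432 and stood between 122 and 202 normalized reads. Its means were 172 ± 24.8 and 160 ± 23.6 in conditions A and B with the 6T sgRNA, and 150 ± 23.9 and 180 ± 20.2 with the Luciferase sgRNA (SD, n = 3 each). The authors' deposited table gave it log2 fold changes of −0.10 and 0.27 (p = 0.265 with the Luciferase sgRNA). The lowest library was again Luciferase A1. DCLRE1C shares 159 exon bases with SUV39H2, a histone methyltransferase gene on the other strand, and the sources used here do not say whether counting used strand, so reads there cannot be told apart. The log2 fold changes of SUV39H2 in the authors' deposited table had the same signs, −0.30 (p = 0.324) and 0.62 (p = 0.149).

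POLL and POLM, the family X polymerases, have the transcripts richest in G and C among the 10. POLL had 594 ± 67.4 and 653 ± 112 normalized reads in conditions A and B with the 6T sgRNA, and 588 ± 119 and 594 ± 15.6 with the Luciferase sgRNA (SD, n = 3 each). Its log2 fold changes in the authors' deposited table were 0.14 and 0.02, and its 12 libraries ran from 506 to 764. POLL shares 243 exon bases with DPCD on the other strand, for which the authors' deposited table gave log2 fold changes of −0.17 and −0.10.

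POLM varied little within conditions other than A of the Luciferase table. Under the 6T sgRNA it stood at 268, 258 and 261 normalized reads in condition A and at 308, 281 and 294 in condition B. Under the Luciferase sgRNA it stood at 368, 277 and 324 in condition A and at 330, 317 and 351 in condition B. Every B library lay above every A library with the 6T sgRNA, as did those of 4.21% of genes (3.68% had every B library below), while with the Luciferase sgRNA A and B overlapped. The A and B libraries of the other 9 members overlapped in both tables (with the Luciferase sgRNA 6.45% of genes had every B library above every A library and 9.57% below). The log2 fold change of POLM in the authors' deposited table was 0.17 with the 6T sgRNA (p = 0.355) and 0.04 with the Luciferase sgRNA (p = 0.803). With limma the 6T difference was 0.16 (95% interval −0.09 to 0.41, adjusted p = 1.00), so it did not pass the threshold.

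POLQ, of the microhomology route, lies on chr3:121431427-121546641. It stood at 481, 619 and 430 normalized reads in condition A and at 579, 401 and 438 in condition B with the 6T sgRNA. Under the Luciferase sgRNA it stood at 192, 501 and 403 in condition A and at 362, 466 and 550 in condition B. Luciferase A1 was the lowest library, 2.61-fold under the highest of its own condition, and the groups overlapped in both tables. The authors' deposited table gave POLQ a log2 fold change of −0.11 with the 6T sgRNA (p = 0.674) and of 0.33 with the Luciferase sgRNA (p = 0.389). With limma the Luciferase difference was 0.42 (95% interval −0.31 to 1.14, adjusted p = 0.524), and it was 0.01 without library A1. Summed markers of dividing cells (MKI67, TOP2A, CCNB1, PCNA and MCM2, none of them at 0) in the Luciferase table spanned 14084 to 17655 normalized reads in condition A and 16725 to 18625 in B, and 15937 to 19830 over both conditions of the 6T table. Singly, the authors' deposited table for the Luciferase sgRNA put TOP2A at a log2 fold change of 0.55, PCNA at 0.47 and CCNB1 at 0.26. MKI67 stood at 0.05 and MCM2 at −0.15 there. TOP2A ran from 1361 to 5073 normalized reads over the 12 libraries, a spread that the sum does not show. The part of these markers in the level of POLQ was not tested.

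No member passed the test between conditions A and B under either sgRNA. With the authors' deposited DESeq test and an adjusted p under 0.05, 0 of 10 were called with the 6T sgRNA, where 0.0416% of 19246 genes were called, and 0 of 10 with the Luciferase sgRNA, where 0% of 20194 genes were called. The adjusted p in the authors' deposited table was 1 for each member under both sgRNAs. At an unadjusted p under 0.05, 0 of 10 members passed in both of the authors' deposited tables, against 0.868% and 1.22% of genes. limma on the recovered reads likewise called 0 of 10 in each table and had 0 of 10 at an unadjusted p under 0.05, against 2.36% of genes with the 6T sgRNA and 9.69% with the Luciferase sgRNA. Its 95% intervals for XRCC6, as folds of B over A, were 0.870 to 1.10 with the 6T sgRNA and 0.920 to 1.14 with the Luciferase sgRNA. For PRKDC they were 0.791 to 1.03 and 0.900 to 1.24, and for XRCC5 0.802 to 1.08 and 0.924 to 1.66.

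The directions of the fold changes differed between the tables. In the authors' deposited table for the 6T sgRNA 3 members (XRCC4, POLL and POLM) were above 0 and 7 below, with a median log2 fold change of −0.07, against 42.2% of genes above 0 and a median of −0.03 over 14051 genes. In that for the Luciferase sgRNA 10 of 10 were above 0, with a median of 0.17, against 49% of genes above 0 and a median of −0.01 over 14087 genes. Single libraries set several of these signs. In limma fits without 6T A2, 7 members were above 0 with the 6T sgRNA, and without 6T B2, 6 were. Without Luciferase A1, 8 members stayed above 0 with the Luciferase sgRNA, and PRKDC came to −0.02 and NHEJ1 to −0.08.

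**Figure D2:**
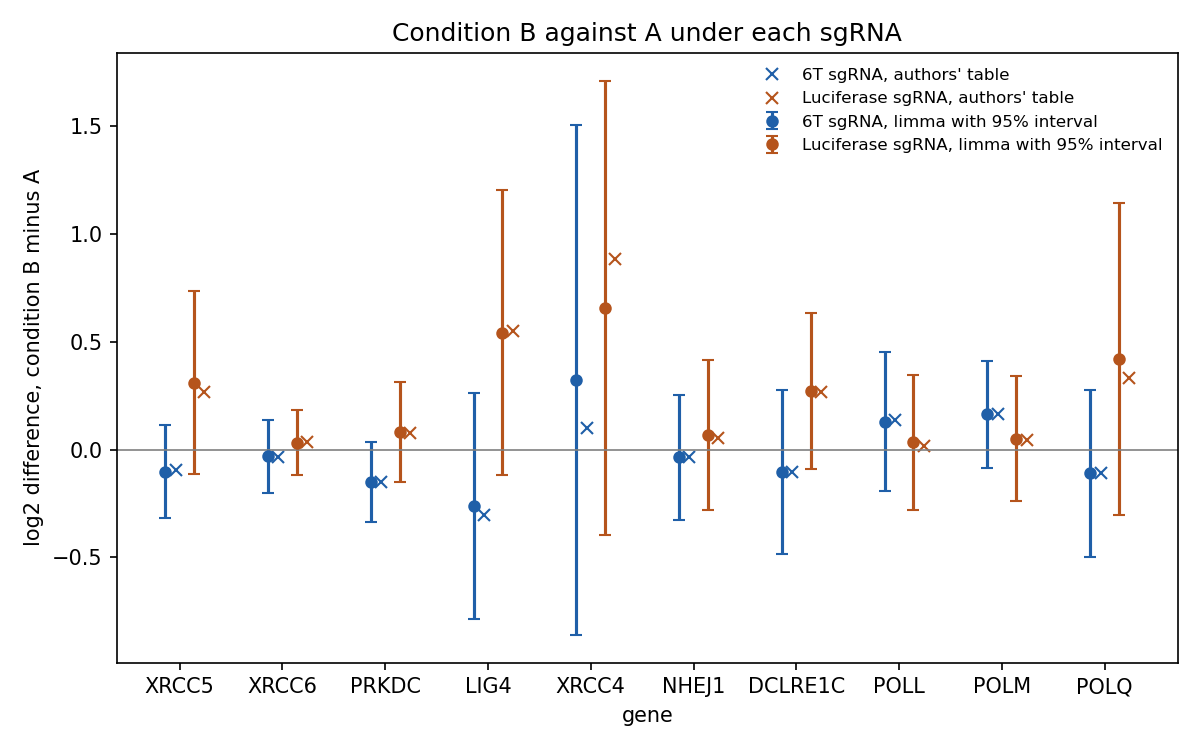
Log2 difference of condition B minus A for each gene with the 6T sgRNA (blue) and the Luciferase sgRNA (orange), with limma estimates and their 95% intervals as points and bars and the authors' values as crosses. Every interval includes 0, and those of XRCC4 are the widest, −0.86 to 1.51 and −0.40 to 1.71.

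The difference between the sgRNAs was tested directly, as the B against A difference under Luciferase minus that under 6T in the limma fit of 12 libraries. It called 0 of 10 members (0% of 14011 genes) and had 0 of 10 at an unadjusted p under 0.05 (9.46% of genes). The members with the smallest p were LIG4 at a log2 difference of 0.80 ± 0.40 (SE, adjusted p = 0.484) and XRCC5 at 0.41 ± 0.23 (SE, adjusted p = 0.484). POLQ stood at 0.53 ± 0.41 (SE, adjusted p = 0.549). Without Luciferase A1 the value was 0.54 for LIG4, 0.16 for XRCC5 and 0.12 for POLQ. The value was above 0 for 8 members and below for POLL and POLM.

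The 4 means were also compared across sgRNAs within conditions of the same letter, which may be different treatments. Within condition A, limma called 0 of 10 members (0.0928% of genes), and 2 of 10 had an unadjusted p under 0.05, as did 31.5% of all genes. These were XRCC5, with a log2 difference of Luciferase minus 6T of −0.53 ± 0.16 (SE, adjusted p = 0.0754), and POLM, at 0.29 ± 0.11 (SE, adjusted p = 0.111). XRCC4 stood at −1.18 ± 0.56, LIG4 at −0.60 ± 0.28 and POLQ at −0.57 ± 0.29 (SE), with adjusted p of 0.167, 0.162 and 0.184 by limma. Without Luciferase A1 the value was −0.34 for LIG4 and −0.17 for POLQ, and without 6T A2 it was −0.54 for XRCC4. Every Luciferase library lay below every 6T library for XRCC5 and XRCC6, as for 16% of genes, and above for POLM, as for 17%. Leaving out Luciferase A1 brought the XRCC5 value to −0.27 (adjusted p = 0.217 by limma), and leaving out Luciferase A2 brought it to −0.68 (adjusted p = 0.0417), past the threshold. After a correction of each library for transcript G+C content the XRCC5 value was −0.31 (adjusted p = 0.221 by limma) and that of POLM was 0.07 (adjusted p = 0.752), while XRCC4, LIG4 and POLQ came to −0.69, −0.10 and −0.23.

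Within condition B the members lay closer together. limma called 0 of 10 (0% of genes) and had 0 of 10 at an unadjusted p under 0.05 (5.4% of genes), with 4 values above 0 and 6 below. PRKDC stood at 0.15 ± 0.10 (SE, adjusted p = 0.943) and XRCC4 at −0.84 ± 0.56 (SE, adjusted p = 0.949). POLM libraries of the Luciferase table were again all above those of the 6T table, as for 6.76% of genes, and none of the 10 had them all below, as 6.17% of genes did. POLM stood there at a log2 difference of 0.18 ± 0.11 (SE, adjusted p = 0.943 by limma).

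The spread between libraries of the same condition was unequal over the 10 genes. The within-group SD of log2 normalized reads was 0.85 for XRCC4, larger than in 99.6% of 801 genes of like mean, and 0.44 for POLQ, larger than in 96.4% of 2072 such genes. It was 0.39 for LIG4 and 0.24 for XRCC5, larger than in 87.9% and 87.6% of genes of like mean. XRCC6 was at the other end, with an SD of 0.060, larger than in 7.41% of 108 genes of like mean, and POLM had 0.11, larger than in 16.6%. PRKDC, NHEJ1, DCLRE1C and POLL had SDs of 0.13, 0.16, 0.21 and 0.21.

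The base composition of each library's reads moved with these genes. For each library, the median log2 level of 1893 genes under 40% G+C, relative to each gene's mean over the libraries, was set against that of 2173 genes over 60%. The difference was −0.89 in Luciferase A1, the lowest, and 0.56 in 6T A2, the highest. In between, 6T A1 and A3 stood at 0.23 and −0.00 and 6T B1 to B3 at 0.28, 0.10 and −0.08. Luciferase A2 and A3 stood at −0.16 and −0.22 and Luciferase B1 to B3 at −0.31, 0.14 and 0.36. Luciferase A1 held the lowest value of the 12 for XRCC5, PRKDC, LIG4, XRCC4, NHEJ1, DCLRE1C and POLQ and the highest for POLM, and 6T A2 held the highest for XRCC5, XRCC6, XRCC4, NHEJ1 and POLQ and the lowest for POLM. The centred log2 level of POLQ, for example, was −1.18 in Luciferase A1 and 0.51 in 6T A2, and that of POLM was 0.29 and −0.22. After correction for transcript G+C content the within-group SD was 0.62 for XRCC4, 0.29 for POLQ, 0.21 for LIG4 and 0.17 for XRCC5, while that of XRCC6 stayed at 0.061. What sets the composition of a library was not tested.

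**Figure D3:**
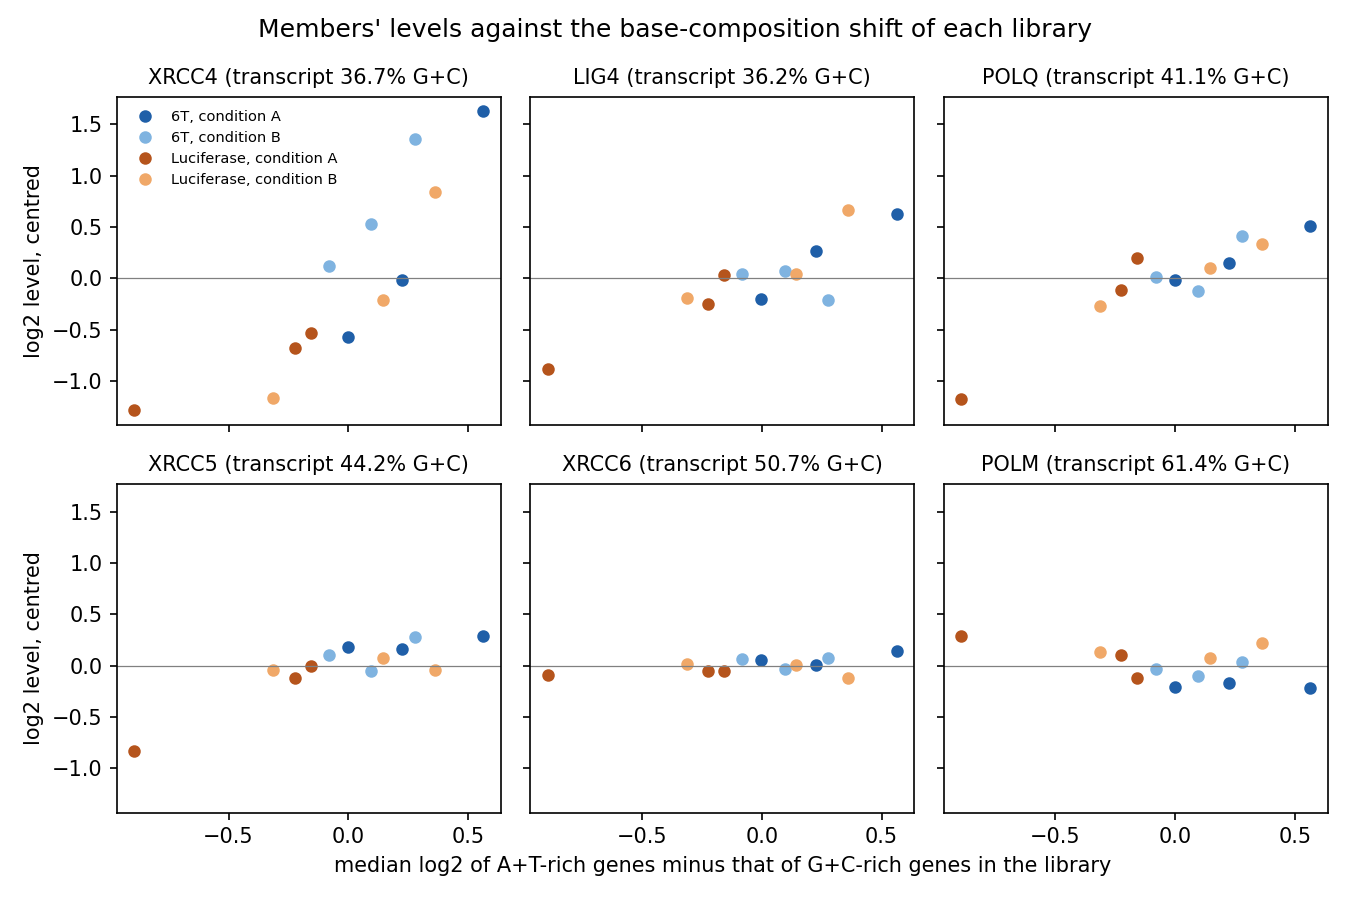
Log2 level of 6 members in each library, centred on the mean of the 12 libraries, against the median log2 of A+T-rich genes minus that of G+C-rich genes in the same library. Luciferase A1, at −0.89 on the horizontal axis, is the lowest point for XRCC4, LIG4, POLQ and XRCC5 and the highest for POLM, while XRCC6 is nearly flat.

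The fold changes were also set against transcript G+C content. In the authors' deposited table for the Luciferase sgRNA, the median log2 fold change of all genes was 0.34 at 35 to 40% G+C, 0.19 at 40 to 45%, 0.03 at 45 to 50%, −0.07 at 50 to 55% and −0.15 at 60 to 65%. In that for the 6T sgRNA the medians ran the other way, from −0.11 at 35 to 40% to 0.07 at 60 to 65%. Against the quartiles of genes in the same 5-point step, 6 of 10 members lay inside with the 6T sgRNA and 4 of 10 (XRCC5, PRKDC, NHEJ1 and DCLRE1C) with the Luciferase sgRNA, where all 10 were above the median of their step. XRCC5, DCLRE1C and POLQ with the 6T sgRNA differed from the median of their step by −0.02, −0.02 and −0.03. LIG4 differed from its step by −0.19 with the 6T sgRNA and by 0.20 with the Luciferase sgRNA, and POLM lay above its step in both, by 0.09 and 0.20. XRCC4 lay above its step by 0.21 and 0.54, and POLL by 0.07 and 0.17. With limma after the G+C correction, the Luciferase difference went from 0.54 to 0.15 for LIG4, from 0.66 to 0.28 for XRCC4 and from 0.42 to 0.18 for POLQ. For others it was larger, from 0.03 to 0.17 for POLL, from 0.05 to 0.20 for POLM and from 0.03 to 0.07 for XRCC6, and 9 of 10 members stayed above 0. The difference of LIG4 between sgRNAs was 0.33.

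**Figure D4:**
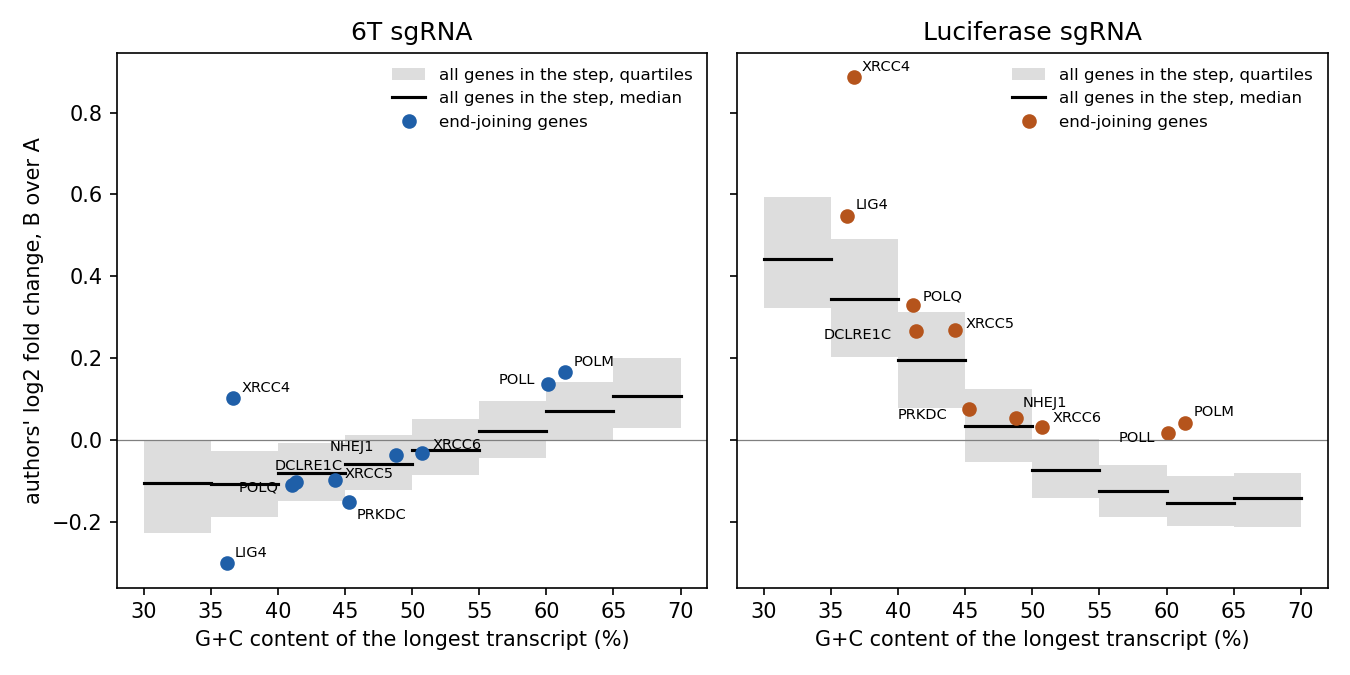
Authors' log2 fold change of condition B over A against the G+C content of the longest transcript, with the median (black) and quartiles (grey) of all genes in 5-point steps. The steps run from −0.11 to 0.07 between 35 and 65% with the 6T sgRNA and from 0.34 to −0.15 with the Luciferase sgRNA, with 6 of 10 members inside the quartiles in the first panel and 4 of 10 in the second, and XRCC4 farthest above in both.

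Neighbouring genes gave a comparison that the choice of members did not fix. LIG4 starts 11 bases from the divergent gene ABHD13, and XRCC4 starts 365 bases from TMEM167A. ABHD13 had log2 fold changes of −0.12 and 0.46 in the authors' deposited table, next to −0.30 and 0.55 for LIG4. TMEM167A had −0.18 and 0.57 in the authors' deposited table, next to 0.10 and 0.89 for XRCC4, and neither neighbour passed the threshold. The transcripts of both neighbours are also poor in G and C, 34.1% in ABHD13 and 36.7% in TMEM167A. XRCC6 starts 23 bases from DESI1, which the authors' deposited table put at −0.09 and −0.08. GENCODE lists 5 processed pseudogenes named after XRCC6, of which XRCC6P5 was in the tables, at no more than 3.09 normalized reads.

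Promoter windows of the 250 bases before the RefSeq start (GRCh38.p14) were held for 8 of the 10 members, all but XRCC5 and PRKDC. The letters CCGGAAG, a core to which ETS factors bind, occurred on either strand in 5 of the 8 (LIG4, XRCC4, POLL, POLM and POLQ), against 8.52% of 35116 windows of the same length. GGGCGG, the GC box, was in 6 of 8 against 42.6% of windows, CCAAT in 3 of 8 against 32.0%, TATAAA in DCLRE1C alone against 10.7%, and AAGATGGC, a YY1 core, in POLL alone against 1.36%. The E2F letters searched (TTTCGCGC, TTTGGCGC and TTTCCCGC) and the NRF1 motif were in none of the 8, against 2.32% and 5.07% of windows. The ETS and GC box letters each hold a CG pair, of which the median window had 11. DCLRE1C (6) and POLQ (10) lay under that median, and the other members ranged from 14 (NHEJ1) to 28 (LIG4). The shares of windows were not matched for base composition. The windows of the family X pair are printed to show a shared ETS match in genes that otherwise hold different letters, with motif matches in capitals, read 5′ to 3′ towards the start on the minus strand (POLL at chr10:101588271-101588520, POLM at chr7:44082531-44082780).
POLL: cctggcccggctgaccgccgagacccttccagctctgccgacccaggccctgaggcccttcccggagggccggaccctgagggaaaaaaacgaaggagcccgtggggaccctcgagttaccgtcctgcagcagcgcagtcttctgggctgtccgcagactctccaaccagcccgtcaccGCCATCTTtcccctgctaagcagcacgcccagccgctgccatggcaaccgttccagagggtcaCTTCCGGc
POLM: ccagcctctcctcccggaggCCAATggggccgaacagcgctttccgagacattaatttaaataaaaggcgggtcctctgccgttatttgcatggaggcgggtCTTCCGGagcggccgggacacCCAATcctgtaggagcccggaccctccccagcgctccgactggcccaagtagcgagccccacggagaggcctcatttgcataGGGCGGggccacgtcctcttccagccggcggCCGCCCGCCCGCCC
In POLL the capitals are the YY1 letters, 71 bases before the start, and the ETS letters as CTTCCGG, 8 bases before it. In POLM they are CCAAT at 230 and 127 bases, the ETS letters at 148 bases, and GC boxes at 45 bases and, overlapping each other, at 14, 10 and 6 bases. A match describes letters, not binding. Of the 5 genes with the ETS letters, XRCC4, POLL and POLM were above 0 and LIG4 and POLQ below with the 6T sgRNA, and all 5 were above 0 with the Luciferase sgRNA, as were the other 5 members, in the authors' deposited tables.

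The genes whose levels followed each member most closely were found by the root mean square (RMS) difference of centred log2 values over the 12 libraries. For XRCC6 it was ATIC, at 0.022, for PRKDC CHD6 at 0.042 and for NHEJ1 UFC1 at 0.050. For POLL it was LMO4 at 0.067, for DCLRE1C C2orf69 at 0.069, for POLM LRSAM1 at 0.080 and for POLQ CKAP2 at 0.090. For LIG4 the closest gene was SASS6 at 0.13 and for XRCC4 RPAP2 at 0.26. The RMS of the member's own centred values was 0.073 for XRCC6, 0.12 for PRKDC, 0.15 for NHEJ1, 0.18 for POLL and 0.20 for DCLRE1C. It was 0.16 for POLM, 0.42 for POLQ, 0.40 for LIG4 and 0.89 for XRCC4. The differences are thus not to be ranked between members, as a flat gene leaves little to differ by. No member was the closest gene of another.

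Other genes of the routes were taken from 3 lists by role. Of 30 genes, 29 had a mean of 10 or more normalized reads, and 0 were called or had an unadjusted p under 0.05 in either of the authors' deposited tables. Limma called 0 of them in the difference between sgRNAs and within both conditions, with 1, 10 and 1 at an unadjusted p under 0.05 in the difference, within A and within B, against 9.46%, 31.5% and 5.4% of all genes. Under the 6T sgRNA 8 were above 0 and 21 below in the authors' deposited table, where 42.2% of all genes were above, and with the Luciferase sgRNA 17 were above and 12 below, where 49% of all genes were above.

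The 8 genes that steer a break between end joining and resection were all below 0 with the 6T sgRNA, with a median log2 fold change of −0.16, and 6 were above 0 with the Luciferase sgRNA, with a median of 0.14, in the authors' deposited tables, where 42.2% and 49% of all genes were above 0. Among them TP53BP1, which shields ends from resection, stood at −0.22 and 0.24, its partner RIF1 at −0.19 and 0.55, and the shieldin subunit SHLD2 at −0.16 and 0.63 in the authors' deposited tables. SHLD1, another shieldin subunit, and MAD2L2, both named outside the rule for named genes, were below 0 with both sgRNAs. In the authors' deposited tables SHLD1 stood at −0.32 and −0.36 and MAD2L2 at −0.04 and −0.19. The 7 measured accessory genes of the classical route had medians of −0.05 and −0.04. They include the end-processing enzyme TDP2, at −0.16 and 0.28, and the scaffold APLF, at −0.05 and 0.49 in the authors' deposited tables. DNTT, which adds bases in lymphocytes, had 4 reads in the 12 libraries.

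The 14 genes of alternative end joining had medians of −0.04 and 0.06 in the authors' deposited tables, with 5 above 0 with the 6T sgRNA and 9 with the Luciferase sgRNA. RAD50, of the complex that starts resection, stood at −0.11 and 0.34 there, the helicase WRN at −0.06 and 0.63, and the gap-filling polymerase POLB at 0.04 and 0.29 in the authors' deposited tables.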

How the data were processed

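For the authors' processing, the submitters' processing notes list STAR, HTSeq, DESeq and hg38, without versions. Whether counting used strand is not given in the sources used here. Each table deposited by the authors holds means of normalized read counts for condition A, condition B and both, per the file headers. Its ratio column is the deposited fold of B over A, and its log2 column the deposited log2 of that fold. Its p-value columns are the deposited DESeq p and adjusted p, per the file headers. Rows that name no gene held 38.6% to 42.3% of the summed means and were left out.

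Whole reads of each library were recovered from the deposited means, which are sums of multiples of 3 steps. This solved 99.7% to 100.0% of means above 0 and gave the true reads for 100% of those it solved among simulated means. The simulated libraries of a condition differed less from each other than those of several members did here, among them XRCC4, POLQ, LIG4 and XRCC5. Recovery at such wider spreads was not simulated. Both conditions of PRKDC and the other members were solved, PRKDC in Luciferase B only with the digits of the fold change. Genes without a solution, taken at their mean, held 0.872% to 1.13% of the reads of a library, and up to 10.7% in Luciferase B. Median-of-ratios factors computed over 12 libraries were within 0.0450% of these size factors, and those computed within 1 table were 25.7% to 36.7% off, so the tables share a normalization and were compared.

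Calls were taken at an adjusted p under 0.05 in the authors' test. A limma fit (3.58.1, R 4.3.3) used a mean-variance trend on log2(normalized reads + 1) for genes with a mean of 10 or more, two-sided, with Benjamini-Hochberg adjustment over all genes. On simulated counts it found 86.8% of genes changed 2-fold in the 6T table, 91.8% in the Luciferase table and 52.8% for the difference between sgRNAs, with 4, 8 and 4 false calls, over spreads that held no shifts between libraries. The rule for named genes took all 10 members, up to 3 genes per role of 3 pathway lists by the smallest authors' p, neighbours within 1000 bases of a start or overlapping exons, and the gene nearest to each member in RMS. Some items that this rule named are not reported here. The members and lists were chosen with earlier results of these data known. Gene positions, lengths, G+C content and coding sequences came from GENCODE v29. Alternatives were other pseudocounts, minimum means, factors (TMM), a G+C correction and leaving out each library.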

Additional observations from a re-analysis of the deposited data

How the results depend on the processing

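No call was made under any alternative other than 1, XRCC5 within condition A without Luciferase A2 (0 to 1 members called over the libraries left out). Pseudocounts of 0.5 and 5, no minimum mean, a minimum of 50 (which left XRCC4 out), TMM factors and limma in place of the authors' test changed no sign. The G+C correction turned NHEJ1 under 6T to 0.0067 and PRKDC under Luciferase to −0.020. It turned the difference between sgRNAs to −0.13 for XRCC4, 0.094 for POLL and 0.093 for POLM, and the value within A to 0.097 for PRKDC and 0.14 for DCLRE1C, leaving 3 members above 0 there.

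With single libraries left out, the members above 0 ranged from 2 to 7 under 6T and from 1 to 2 within A. Under 6T the log2 values ranged from −0.063 to 0.0053 for XRCC6, −0.14 to 0.96 for XRCC4, −0.081 to 0.027 for NHEJ1, −0.21 to 0.016 for DCLRE1C and −0.27 to 0.037 for POLQ. Under Luciferase they ranged from −0.019 to 0.16 for PRKDC, −0.084 to 0.17 for NHEJ1, −0.065 to 0.19 for POLL and −0.055 to 0.15 for POLM. The difference between sgRNAs ranged from −0.31 to 0.83 for XRCC4, −0.048 to 0.21 for NHEJ1 and −0.23 to 0.064 for POLL. Within A the ranges were −0.16 to 0.021 for PRKDC and −0.19 to 0.071 for POLL, and within B −0.042 to 0.39 for LIG4 and −0.19 to 0.12 for POLQ. No paired analysis was possible because the recovered libraries carry no replicate number.

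The limits are few reads for XRCC4 and LIG4, 3 libraries per group, unequal depth in the Luciferase table, and unnamed conditions.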
